A study of Homo sapiens with 6 samples.

Results

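The miR-183, miR-96 and miR-182 cluster is a group of 3 microRNA hairpins, each giving a 5p and a 3p arm, and its 6 mature arms were each read by 1 of the 2019 human probes on the array. The probes were taken by name, and all 6 names were found, but the members were chosen with earlier results of these data known. Under their full names these are hsa-miR-183-5p, hsa-miR-183-3p, hsa-miR-96-5p, hsa-miR-96-3p, hsa-miR-182-5p and hsa-miR-182-3p. RNA came from HuH7 cells, an established line from a human hepatocellular carcinoma. The 3 control samples received no drug, and the 3 cisplatin samples received the drug, which crosslinks DNA, at 1 µg/ml for 24 h. Each sample of Hy5-labelled total RNA was hybridised to a 1-colour array of its own. Samples carry the numbers 1 to 3 within each group. Whether they were grown separately is not stated, so the p-values reflect the spread among these samples alone, and that spread may be technical. The design asks which microRNAs differ after cisplatin. All results are for 1 cell line, 1 dose and 1 time. In bulk RNA, a change in the RNA per cell and a change in the mix of cells cannot be told apart.

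The hairpins of this cluster are cut from a shared primary transcript, and each hairpin is then trimmed to a short duplex from which mainly the 5p arm is kept to guide silencing of messenger RNAs. The seed, bases 2 to 8 of the mature RNA, does most of the target recognition. The cluster is best known from sensory cells, such as photoreceptors and the hair cells of the inner ear, where changes in the seed of miR-96 cause hearing loss. It is also among the microRNAs often reported as raised in carcinomas, liver cancer included. miR-182-5p is known for acting on FOXO transcription factors, and miR-182-5p and miR-96-5p have both been reported to act on transcripts of DNA repair proteins, which is why they are of interest beside a drug that damages DNA.

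In RefSeq (GRCh38.p14) the hairpins lie on the minus strand of chromosome 7, MIR182 at chr7:129770383-129770492, MIR96 at chr7:129774692-129774769 and MIR183 at chr7:129774905-129775014. The 3 hairpins span 4632 bases, with 135 bases between MIR96 and MIR183 and 4199 between MIR182 and MIR96. No other annotated gene overlaps this span, so the hairpins are intergenic in this annotation. The nearest protein-coding genes are NRF1, 13306 bases from MIR182, and UBE2H, 55717 bases from MIR183.

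All 6 arms matched the RefSeq table of mature sequences. The 5p arms are shown first, since both arms detected on every array are among them, and the 3p arms from the same hairpins are shown to be set beside them. Sequences run 5′ to 3′, with the seed in capitals.
miR-182-5p: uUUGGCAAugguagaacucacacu
miR-96-5p: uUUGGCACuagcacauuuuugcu
miR-183-5p: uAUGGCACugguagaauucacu
miR-182-3p: uGGUUCUAgacuugccaacua
miR-96-3p: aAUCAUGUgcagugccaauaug
miR-183-3p: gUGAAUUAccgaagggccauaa
The 3 seeds of the 5p arms are close variants of each other. Counted from 1 at the 5′ end, with the base of the miR named first written first, the seeds of miR-182-5p and miR-96-5p differ by A8C. Those of miR-96-5p and miR-183-5p differ by U2A, and those of miR-182-5p and miR-183-5p by U2A and A8C. Outside the seed, compared position by position without gaps, the order of likeness is different. There miR-182-5p and miR-183-5p are identical at 13 of 15 positions, with the run UGGUAGAA at bases 9 to 16 in both, while miR-182-5p and miR-96-5p are identical at 6 of 16. Probe sequences are not used here, and how far the probes for miR-182-5p and miR-183-5p bind each other's RNA was not tested.

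The hairpins of miR-96 and miR-182 show both arms in place, in capitals, since each 5p arm was detected on all 6 arrays, while miR-96-3p was detected on 0 and miR-182-3p on 1.
MIR96: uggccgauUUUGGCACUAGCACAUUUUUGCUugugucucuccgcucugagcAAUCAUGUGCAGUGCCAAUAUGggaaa
MIR182: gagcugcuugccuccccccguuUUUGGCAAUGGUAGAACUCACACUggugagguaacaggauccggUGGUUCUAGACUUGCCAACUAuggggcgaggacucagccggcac

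A probe was called detected where its foreground, the median of the spot's pixels, lay above a limit set on each array as the mean plus 2 SD of 925 blank spots. That limit lay between 220 and 239.8 on control arrays and between 209 and 247 on cisplatin arrays, and 329 to 738 human probes per array were above it. Of the 6 cluster probes, miR-182-5p and miR-96-5p were detected on all 6 arrays, miR-183-5p on 3, miR-182-3p on 1, and miR-96-3p and miR-183-3p on 0. The groups were compared over the 324 probes that were detected throughout 1 group or both, which took in 2 of the 6 cluster probes and left 4 untested. As a check of the cell type, all 6 hepatocyte markers were detected on all 6 arrays, led by miR-122-5p with a raw foreground of 4337 to 5169. Of the 6 blood cell markers and the 2 neuronal markers, 0 were detected on all 6 arrays, as 243 of the 2019 human probes were. All of these markers but miR-142-5p were above the limit on some arrays, at most 2 of 3 per group. Of 8 stromal, endothelial and muscle markers, 3 were detected on all 6 arrays (miR-143-3p, miR-145-5p and miR-126-3p), with raw foreground of at most 346. miR-1 was below the limit on every array, and the rest were above it on some arrays. The signals of miR-143-3p, miR-145-5p and miR-126-3p did not differ between the groups beyond the threshold (limma adjusted p of 0.448 to 0.926).

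miR-182-5p was the only arm of the cluster whose raw signal separated the groups, with higher values after cisplatin, but its difference did not pass the test over all probes. Raw foreground was 325, 379 and 386 on control arrays 1, 2 and 3, and 431, 440 and 441 on cisplatin arrays 1, 2 and 3. All 3 cisplatin arrays lay above all 3 control arrays, and the cisplatin arrays lay closer together (437 ± 5.51, SD, n = 3) than the control arrays (363 ± 33.4, SD, n = 3). The exact two-sided permutation test gave p = 0.1, the smallest value that 3 arrays against 3 allow. Of the 324 tested probes, 31 (9.57%) had raw foreground without overlap and higher on cisplatin arrays, so this separation was not particular to miR-182-5p.

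The signal over the local background gave the same separation. For miR-182-5p the local background was 141, 175 and 159 on control arrays and 138, 163 and 145 on cisplatin arrays, lower on the cisplatin array of each same-numbered pair. Foreground minus local background was thus 184, 204 and 227 on control arrays and 293, 277 and 296 on cisplatin arrays. These groups do not overlap either, with a ratio of the means of 1.41, and 58 tested probes (17.9%) were separated in this way in the same direction. Among all 2019 human probes of its own array, which needs no scaling between arrays, miR-182-5p ranked 130, 118 and 113 from the brightest in control and 98, 109 and 106 in cisplatin.

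**Figure D1:**
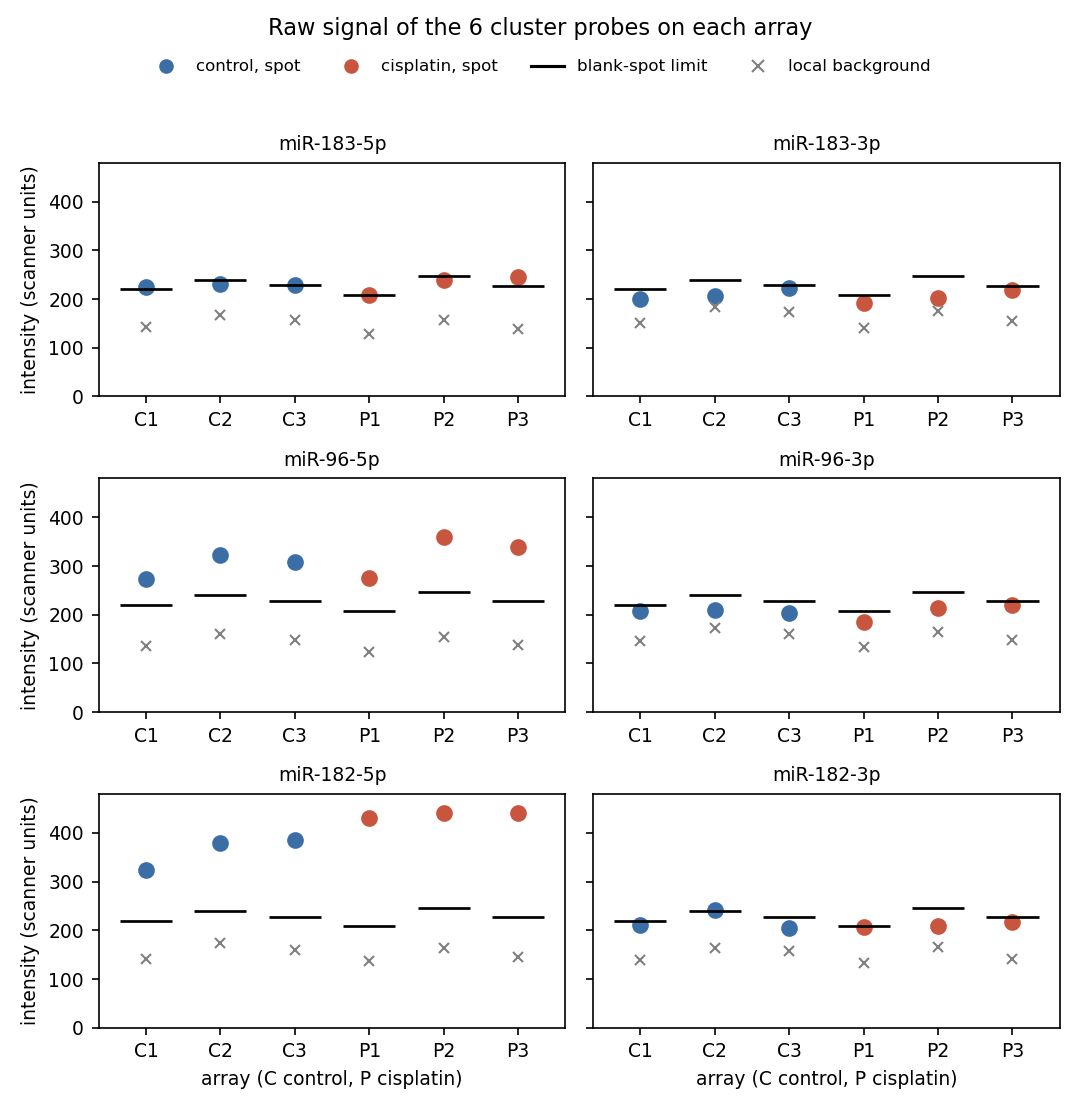
Raw foreground (points), local background (crosses) and blank-spot limit (lines) in scanner units for the 6 cluster probes, on control arrays C1 to C3 and cisplatin arrays P1 to P3. miR-182-5p is above the limit on every array and its cisplatin points (431 to 441) lie above its control points (325 to 386), miR-96-5p is above the limit with overlapping groups, and the other 4 probes lie at or near the limit.

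After background correction with normexp and quantile normalization, miR-182-5p stood at 7.89, 7.95 and 8.03 (log2) on control arrays and at 8.42, 8.15 and 8.21 on cisplatin arrays. The groups do not overlap on this scale either, as was so for 8.64% of tested probes in this direction, and the highest value by a margin is that of cisplatin array 1. The means were 7.96 ± 0.070 in control and 8.26 ± 0.14 in cisplatin (SD, n = 3 each). The log2 fold change was 0.30 (SE 0.088, 95% interval 0.082 to 0.52), or 1.23-fold. Its unadjusted limma p was 0.0159 and its Benjamini-Hochberg adjusted p over the 324 probes was 0.172, so it did not pass at 0.05. Over those probes 1 passed (0.309%), or 0 with the replicate number as a block, and it is not of this cluster, while 26 (8.02%) were higher at an unadjusted p under 0.05. miR-182-5p was 16th from the top by fold change and 30th by p. With that block the adjusted p of miR-182-5p was 0.274.

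The size of the difference was uneven across the same-numbered pairs. It was 0.53 in pair 1, 0.20 in pair 2 and 0.18 in pair 3 on the normalized log2 scale, higher after cisplatin in 3 of 3, a pattern shared by 19.1% of tested probes. In raw foreground the differences were 106, 61 and 55. Pair 1 thus carries the largest share on both scales. Array position, here the number under the scanner header Cell, differed between the groups. That this number is a position is a reading of the header, which the sample labels do not mention. Control arrays 1 and 3 lay at position 3 and control array 2 at position 1. Cisplatin arrays 1 and 3 lay at position 4 and cisplatin array 2 at position 2. Since every position held arrays of 1 group only, effects of position and of the drug cannot be told apart. Between positions 1 and 2, which held pair 2 only, the difference was 0.20. In the arrays at positions 3 and 4 it was 0.36, but pairs 1 and 3, which both lay there, were unlike (0.53 and 0.18). The authors' deposited table, on their own linear scale, lists miR-182-5p at 129, 155 and 196 on control arrays and 231, 229.6 and 241 on cisplatin arrays. Its log2 fold change there was 0.57, or 0.42 relative to the median of the tested probes, which shifted by 0.15 on that scale, with a limma adjusted p of 0.443.

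**Figure D2:**
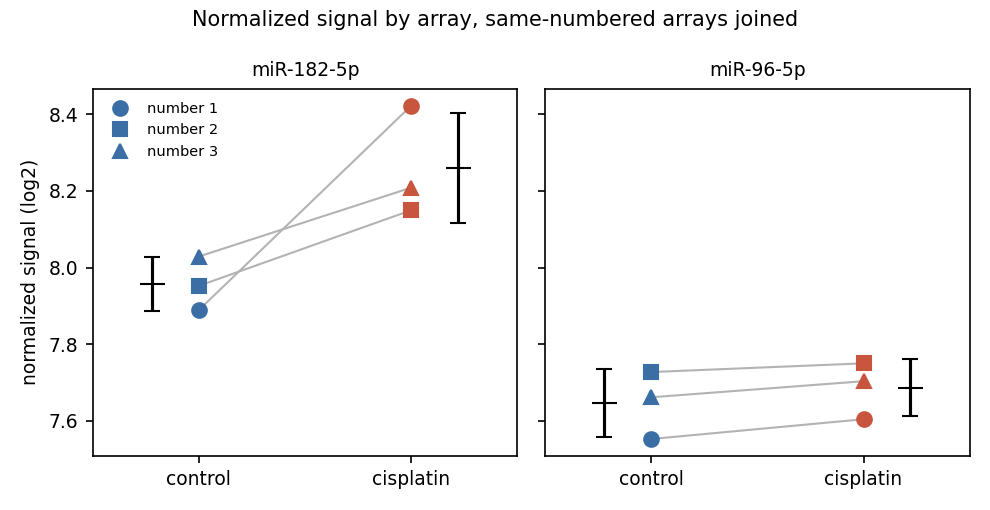
Normalized log2 signal of miR-182-5p and miR-96-5p on each array, with same-numbered control and cisplatin arrays joined and the mean ± SD (n = 3) beside each group. miR-182-5p is higher after cisplatin in all 3 pairs, most in pair 1 (0.53), and miR-96-5p moves by at most 0.052 in any pair.

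miR-96-5p, which shares 6 of 7 seed bases with miR-182-5p, was detected on every array with little difference between the groups. Raw foreground was 273, 322 and 309 on control arrays and 276, 360 and 338 on cisplatin arrays. Cisplatin array 1 lay among the control arrays, so the groups overlap, and array 1 was the dimmest of both groups. The means were 301 ± 25.4 and 325 ± 43.6 (SD, n = 3 each), and the exact two-sided permutation test gave p = 0.4. On the normalized log2 scale the values were 7.55, 7.73 and 7.66 in control and 7.60, 7.75 and 7.70 in cisplatin. The log2 fold change was 0.039 (SE 0.070, limma adjusted p = 0.867), and its 95% interval of -0.14 to 0.21 leaves room for a fold change of 0.91 to 1.16. The pair differences were 0.052, 0.023 and 0.042, all positive and all small beside the spread between the pairs' own levels. The value was 0.20 with median scaling and 0.34 with the authors' values, or 0.10 and 0.18 relative to the median of the tested probes, which shifted by 0.10 and 0.15 under these settings. It was -0.0085 without control replicate 1 and 0.0067 without cisplatin replicate 2.

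The 2 detected arms were set against each other within each array, as the only pair of cluster probes that could be compared. The normalized log2 signal of miR-182-5p less that of miR-96-5p was 0.34, 0.22 and 0.37 on control arrays and 0.82, 0.40 and 0.50 on cisplatin arrays. These are differences between probes whose own levels are not comparable, and only their change is read. The change was 0.26 (SE 0.13), from 0.31 ± 0.075 in control to 0.57 ± 0.22 in cisplatin (SD, n = 3 each). The groups did not overlap, with control array 3 and cisplatin array 2 nearest, and the exact two-sided permutation test gave p = 0.1, the smallest possible (adjusted p = 0.1 over 1 pair). A design of this size cannot reach 0.05, so unequal change of these arms of 1 cluster was not shown. The groups overlapped, with changes of 0.17 to 0.24 and exact permutation p of 0.2 to 0.4, without background correction, with the 75th percentile, with median scaling, with cyclic loess, without normalization, with pixel means and with the authors' values. Without cisplatin replicate 1 the change was 0.14.

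miR-183-5p, the arm with the remaining 5p seed, stayed at the edge of detection. Raw foreground was 224, 231 and 228 on control arrays and 209, 239 and 245 on cisplatin arrays. It exceeded the blank limit on control array 1, cisplatin array 1 and cisplatin array 3, by 3.92, 0.37 and 17.6 units. The raw groups overlap, with means of 228 ± 3.51 and 231 ± 19.3 (SD, n = 3 each, exact two-sided permutation p = 0.9). It was not tested in the main comparison, and its normalized values of 6.837, 6.76 and 6.72 in control and 6.842, 6.93 and 7.02 in cisplatin gave a difference of 0.16. On that scale the groups do not overlap, by a narrow margin between control array 1 and cisplatin array 1, and the cisplatin array is higher in 3 of 3 pairs. Among tested probes 8.64% did not overlap in this direction and 19.1% were higher in 3 of 3 pairs. The shares among untested probes, to which miR-183-5p belongs, were not taken. In raw foreground the pair differences were -15, 8 and 17. The log2 difference was -0.014 with scaling to the 75th percentile, or 0.062 less the shift. With the blank limit trimmed of its extreme spots the probe entered the test and did not pass (limma adjusted p = 0.37).

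The 3p arms gave no signal that could be told from blank spots. For miR-96-3p raw foreground was 208, 210 and 203 on control and 185, 213 and 220 on cisplatin arrays. For miR-183-3p it was 200, 207 and 223 on control and 191, 202 and 219 on cisplatin arrays. Both lay below the limit on every array, so no fold is given. miR-182-3p was at 212, 242 and 204 on control and at 208, 210 and 217 on cisplatin arrays, and exceeded the limit only on control array 2, by 2.17 units. On the same arrays miR-182-5p, the other arm of that hairpin, exceeded the limit by 105 to 222 units. At this signal over background a difference in the 3p arms was not detectable.

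miR-1271-5p is the only other mature microRNA in the RefSeq table that has the whole seed of a cluster arm. It comes from chr5:176367960-176367981 and carries the seed of miR-96-5p, which is why its sequence is shown.
miR-1271-5p: cUUGGCACcuagcaagcacuca
Outside the seed it is identical to miR-96-5p at 2 of 15 positions, compared position by position without gaps. A shared run that is shifted does not count in this measure. Its raw foreground was 212, 220 and 220 on control arrays and 192, 238 and 215 on cisplatin arrays, below the limit on every array. Of the microRNAs with that seed, then, miR-96-5p was the only one detected in these cells. The other 5 cluster arms had no seed relative in the table.

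**Figure D3:**
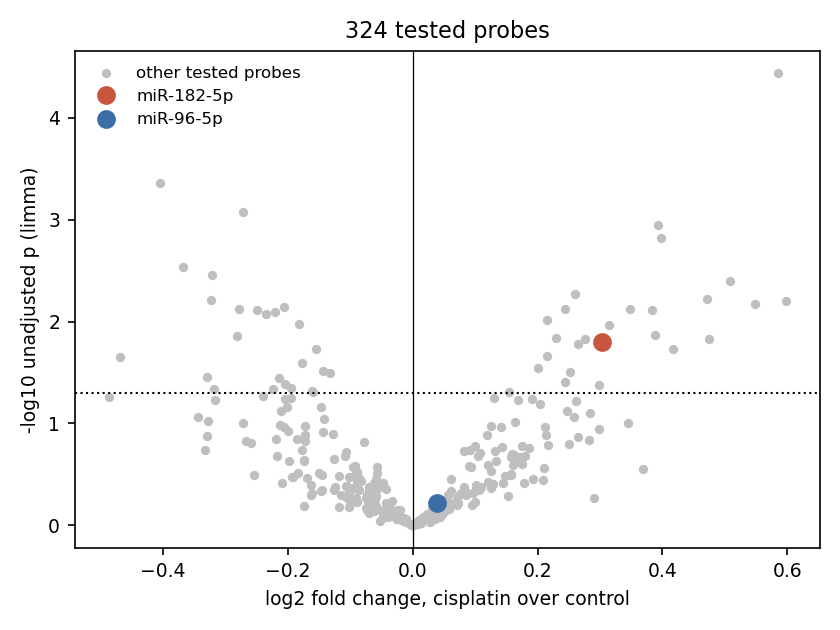
Log2 fold change (cisplatin over control) against the unadjusted limma p on a -log10 scale, with a point for each of the 324 tested probes, miR-182-5p and miR-96-5p in colour, and 0.05 marked by a dotted line. miR-182-5p (0.30) lies above the line among 26 probes on the higher side, and miR-96-5p (0.039) lies near the origin.

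Other microRNAs were set beside the cluster by 4 lists, of which none had a probe that passed (limma, 0 in each, against 1 of 324 over all tested). Over all tested probes 150 of 324 were positive (46.3%), and their log2 fold changes had a median of -0.012 and quartiles of -0.10 and 0.10. miR-182-5p lay above the upper quartile and miR-96-5p between the quartiles. At an unadjusted p under 0.05 the lists had 0 of 3, 0 of 2, 3 of 13 and 3 of 11 probes in the order given below, beside 15.7% of all tested probes.

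Neighbours on the long arm of chromosome 7 had 3 of 12 probes tested, 2 positive and 1 negative, with a median of 0.13. miR-29a-3p, known for acting on collagen transcripts, stood at 0.30 (SE 0.16). miR-29b-3p stood at 0.13 (SE 0.14) and miR-335-5p at -0.024 (SE 0.15). The nearest of these hairpins, MIR335, lies 721096 bases from the cluster, and the 2 hairpins of the miR-29 family lie 1101732 and 1102444 bases away. miR-29a-3p thus had nearly the value of miR-182-5p with an SE that was larger.

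The miR-200 family, which maintains epithelial character and is often raised in the same carcinomas as this cluster, had 2 of 9 probes tested. miR-200a-3p, detected on all 6 arrays, stood at 0.091 (SE 0.060). miR-200b-3p stood at 0.17 (SE 0.12), but it was detected on 2 of 3 control and 3 of 3 cisplatin arrays and so entered the test only through the group where it is higher. Raw foreground of these probes was at most 297.

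MicroRNAs reported to act on DNA repair transcripts, with the cluster's own arms left out, had 13 of 18 probes tested, 9 positive and 4 negative, with a median of 0.093. At an unadjusted p under 0.05 there were 3, all higher. The brightest of the list were miR-103a-3p (0.099, SE 0.063), miR-21-5p (0.38, SE 0.094), miR-107 (0.093, SE 0.076) and miR-24-3p (0.39, SE 0.11). miR-21-5p and miR-24-3p had larger values than miR-182-5p, and neither passed (limma adjusted p = 0.129 and 0.167). miR-155-5p was above the limit on 3 of 3 control arrays and 0 of 3 cisplatin arrays, so it entered the test only through the group where it is higher. With cisplatin values set no lower than the dimmest detected probe of each array, its mean was 1.34-fold lower after cisplatin. That figure makes no allowance for error. The fitted log2 fold change was -0.49 (SE 0.20, limma adjusted p = 0.325), so a decrease was not shown.

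Those reported as raised in hepatocellular carcinoma, again without the cluster, had 11 of 16 probes tested, 5 positive and 6 negative, with a median of -0.057. miR-21-5p and miR-155-5p are also on the DNA repair list, as are miR-222-3p, miR-18a-5p and miR-210. After miR-21-5p the brightest were miR-106b-5p (-0.057, SE 0.046), miR-93-5p (-0.14, SE 0.049) and miR-25-3p (-0.058, SE 0.084), which come from a cluster of their own. At an unadjusted p under 0.05 there were 2 higher and 1 lower. The hepatocyte markers had 1 positive and 5 negative of 6, with a median of -0.14 and 0 that passed. Of these, 2 were lower at an unadjusted p under 0.05, miR-122-5p (-0.21, limma adjusted p = 0.129) and miR-122-3p (-0.37, limma adjusted p = 0.129). They are the 2 arms of 1 hairpin, and 25 of all 324 tested probes were lower at that unadjusted p. miR-375, a microRNA of endocrine and sensory cells, was below the limit on every array. miR-7-5p, which is high in neuroendocrine cells, stood at -0.19 (SE 0.075, limma adjusted p = 0.31).

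**Figure D4:**
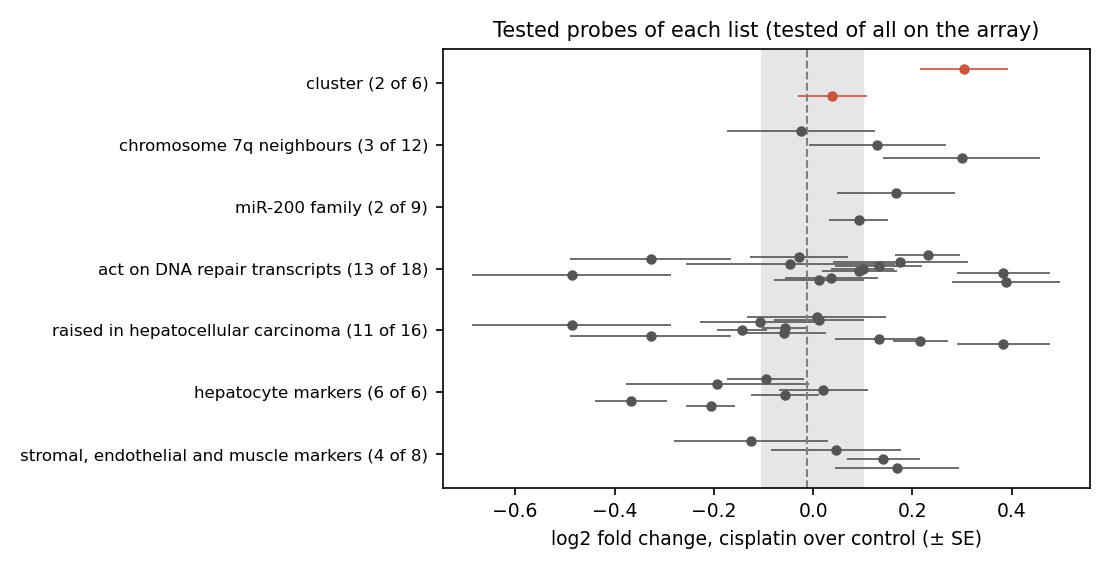
Log2 fold change (± SE) of the tested probes of the cluster and of 6 lists, with the number tested of the number on the array, the median of all tested probes as a dashed line and their quartiles (-0.10 to 0.10) as a band. The cluster has 1 probe above the band (miR-182-5p) and 1 within it (miR-96-5p), and each list other than the miR-200 family has probes on both sides of 0.

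The probes whose profile over the 6 arrays was most like that of miR-182-5p were found by the root mean square difference of normalized log2 signal, each probe less its own mean, over 317 other tested probes without a fixed rank. They were miR-4695-5p (0.049), miR-4763-3p (0.060) and miR-1247-3p (0.066), against a median of 0.22 for all compared. All 3 were dim, with raw foreground of at most 291. For miR-96-5p they were miR-186-5p (0.027), miR-187-5p (0.033) and miR-345-5p (0.050), against a median of 0.16. miR-182-5p and miR-96-5p differed from each other by 0.19 in this measure, which is close to the median of either.

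**Figure D5:**
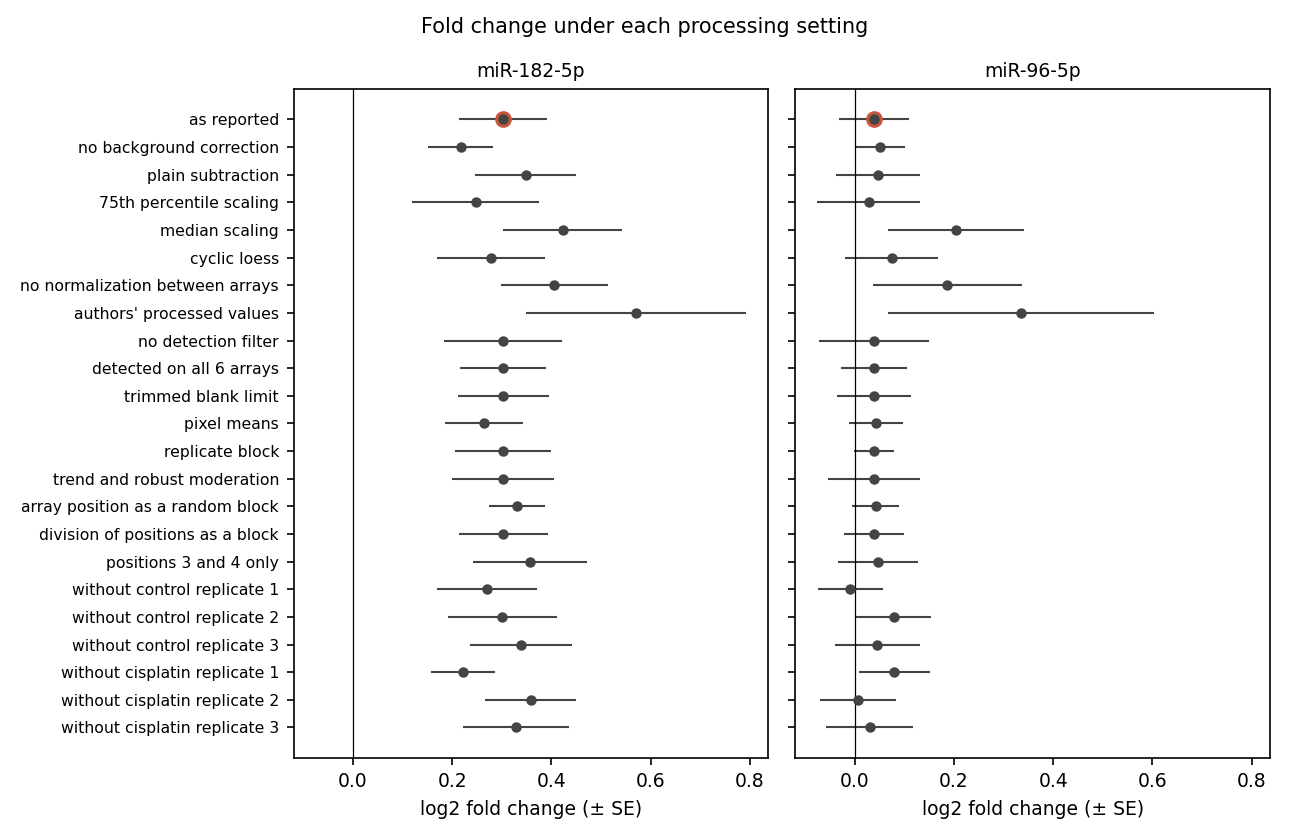
Log2 fold change (± SE) of miR-182-5p and miR-96-5p as reported (red) and under each other processing setting, named on the left. miR-182-5p is positive under all 22 alternatives, from 0.22 to 0.57, and miR-96-5p lies between -0.0085 and 0.34.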

How the data were processed

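Total RNA was labelled with Hy5, a red dye, per the labels, while the names of the scanner columns give a wavelength usual for green dyes. The files hold values of 1 channel only, which were used as given. The deposited scanner files hold linear intensity, per the file headers pixel medians and means for every spot and for the background around it. The authors' processed table, also deposited, holds linear intensity that is an exact straight line of the foreground within each array (largest residual 5.4e-06), with a median of 31 over the listed probes on every array. It was used as an alternative. The scanner model is not given in the sources used here.

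In limma 3.58.1 (R 4.3.3), normexp with an offset of 50 corrected the pixel medians. Then log2 was taken and the log2 values of the human probes were quantile-normalized. The test was lmFit with eBayes, on 4 residual degrees of freedom and 1.52 from the prior, at a Benjamini-Hochberg adjusted p of 0.05 over the 324 tested probes. The steps were run on simulated data without effects of pair or position, which says nothing about such effects in these data. Figures used matplotlib 3.10.9.

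The members and lists were chosen with earlier results of these data known. Named are the 6 arms, their seed relatives, the (at most 4) brightest tested probes per list, and the 3 probes most like each tested arm. miR-155-5p, the lineage markers and the microRNAs shared by both lists were added after their values were seen.

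Deviations from the group means correlated between same-numbered samples (0.44, 0.24 and 0.20 over the tested probes, all over 0.1), which meets the bar for pairs. The main fit and the permutation tests are unpaired, and the fit with the number as a block is an alternative. This rests on the labels' numbers and this check, not on a stated design. No pair of arrays shared more than 2.72% equal foreground values.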

Additional observations from a re-analysis of the deposited data

How the results depend on the processing

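The 2 tested arms kept their side of the threshold under all alternatives except array position as a random block, where miR-182-5p passed (0.33, limma adjusted p = 0.0220) and 1 cluster probe was called in place of 0. That fit called 47 probes, with an estimated correlation within positions of -0.62. Since every position held arrays of 1 group only, it cannot adjust the difference for position. No conclusion is drawn from miR-182-5p passing there. Elsewhere the adjusted p of miR-182-5p was 0.132 to 0.941. Its value was 0.22 to 0.36 when 1 array was left out, 0.22 without background correction, 0.42 with median scaling and 0.57 with the authors' values. miR-96-5p turned to -0.0085 without control replicate 1 and otherwise stayed positive (0.0067 to 0.080 when another array was left out). The change of miR-182-5p less miR-96-5p was 0.14 to 0.35 under all alternatives run, but its test cannot pass, and the kept side says nothing.

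The replicate block left the values of the tested arms at 0.30 and 0.039 and changed no call of the cluster, and 0 probes passed with it. The number of probes that passed over the whole table was 1. It was 3 without background correction, 2 with the 75th percentile, 2 with median scaling, 4 with cyclic loess and 0 to 3 when 1 array was left out (2 without control replicate 1, 3 without cisplatin replicate 2, 0 without any other). It was 0 with the authors' values, without normalization, with all human probes tested and with detection on all 6 arrays. There the limma fits had 26 of 308, 33 of 324, 97 of 2019 and 39 of 243 probes at an unadjusted p under 0.05. The number that passed was also 0 with pixel means, with the replicate block, at positions 3 and 4 only and under trend and robust moderation. There 39, 57, 38 and 38 of 324 probes had an unadjusted limma p under 0.05. Causes of these changes were not tested. The 4 dim arms are limited by signal over background.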

Other observations

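The local background of both miR-182 spots on control array 3 was uneven. The pixel mean was 187.4 around the miR-182-5p spot and 187 around the miR-182-3p spot, against pixel medians of 159 and 157. On the other 5 arrays the mean exceeded the median around the miR-182-5p spot by less, at most 177 against 163 on cisplatin array 2. Foreground pixel means of miR-182-5p were 341, 381 and 396 on control arrays and 430, 466 and 435 on cisplatin arrays. The share of tested probes without overlap on this scale was not taken. With pixel means for both foreground and background, the log2 fold change of miR-182-5p was 0.26 (limma adjusted p = 0.268).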
